A study of Mus musculus with 4 samples.

Results

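The regions described here were open, as judged by a called ATAC-seq peak, in differentiated Jmjd1a mutant cells and in none of the 3 other libraries of the study. Peaks of the 4 lists on chromosomes 1 to 19 were merged wherever they shared at least 1 bp, and a merged region was kept when it held a peak of the mutant day 8 library (HY D8) and no peak of WT D0, WT D8 or HY D0. This gave 4898 members among 98469 merged regions (4.97%) and among 44228 regions with an HY D8 peak (11.1%). Since the members were selected on the peak calls of all 4 libraries, their strength is given as a description without a test.

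ATAC-seq uses the Tn5 transposase to tag DNA that is accessible in nuclei. It was applied to im-scWAT cells, which are stromal vascular cells of subcutaneous white fat from 5-week-old mice, immortalised with a retrovirus carrying SV40 large T antigen and selected with puromycin. WT cells carried Jmjd1a +/+ and HY cells carried Jmjd1a HY/HY, a histidine-to-tyrosine change that inactivates the demethylase and that the donor mice carried in all tissues. Day 0 (D0) cells were undifferentiated. Day 8 (D8) cells had been induced with indomethacin, dexamethasone, 3-isobutyl-1-methylxanthine, rosiglitazone, insulin and T3 and then kept in insulin, T3 and rosiglitazone to form beige adipocytes. There was 1 library per group, so each difference compares 2 libraries, and the effect of the allele cannot be told apart from that of the culture that carried it. Intervals below are 95% intervals that cover counting error only.

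Jmjd1a, also named Kdm3a, removes methyl groups from lysine 9 of histone H3, a mark of closed chromatin. During adipocyte differentiation, C/EBP factors, PPARγ, EBF2 and NFI factors bind and open enhancers, while many preadipocyte enhancers bound by AP-1 and TEAD factors close. An enhancer may lie in an intron or between genes, far from the promoter it acts on.

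Sequences of some of the strongest members show what such sites look like. Each line gives the nearest protein-coding gene and the 201 bases around the summit of the HY D8 peak, on the plus strand of mm9 (NCBIM37), with matches to any of the 15 motifs searched in capitals. Dbc1, Lmtk2 and Auts2 name the 3 members with the highest −log10 q. Pgap1 is shown because its member held both a C/EBP and an EBF match, Trem2 because it had the highest −log10 q of the members at protein-coding promoters, and Irak1bp1 because no motif searched was found in it.
Dbc1, chr4:68517948-68518148: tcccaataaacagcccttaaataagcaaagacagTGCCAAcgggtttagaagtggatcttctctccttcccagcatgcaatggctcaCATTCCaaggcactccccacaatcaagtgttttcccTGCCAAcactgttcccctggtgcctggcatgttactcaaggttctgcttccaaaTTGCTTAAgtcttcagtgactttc
Lmtk2, chr5:144870131-144870331: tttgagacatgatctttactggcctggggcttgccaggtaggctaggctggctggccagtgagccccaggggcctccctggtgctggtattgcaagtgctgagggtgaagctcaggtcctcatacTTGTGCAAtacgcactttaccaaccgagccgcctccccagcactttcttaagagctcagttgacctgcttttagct
Auts2, chr5:132849561-132849761: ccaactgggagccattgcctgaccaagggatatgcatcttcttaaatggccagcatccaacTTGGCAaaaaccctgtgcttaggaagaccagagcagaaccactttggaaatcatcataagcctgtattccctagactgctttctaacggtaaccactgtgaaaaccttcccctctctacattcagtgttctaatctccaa
Irak1bp1, chr9:82378117-82378317: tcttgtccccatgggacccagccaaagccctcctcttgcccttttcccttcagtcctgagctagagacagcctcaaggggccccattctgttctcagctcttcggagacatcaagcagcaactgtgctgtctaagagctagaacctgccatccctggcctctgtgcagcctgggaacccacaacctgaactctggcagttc
Pgap1, chr1:54671842-54672042: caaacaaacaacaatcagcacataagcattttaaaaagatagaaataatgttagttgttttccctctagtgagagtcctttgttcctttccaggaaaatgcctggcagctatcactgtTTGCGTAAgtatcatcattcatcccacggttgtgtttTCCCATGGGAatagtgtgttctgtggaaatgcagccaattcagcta
Trem2, chr17:48485647-48485847: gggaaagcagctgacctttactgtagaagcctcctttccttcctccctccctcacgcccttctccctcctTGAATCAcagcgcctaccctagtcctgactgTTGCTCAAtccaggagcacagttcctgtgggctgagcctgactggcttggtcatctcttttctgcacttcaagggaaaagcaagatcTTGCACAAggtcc

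In the Dbc1 member a C/EBP match (TTGCTTAA) lay 81 bp to the right of the summit, the NFI core TTGGCA occurred on the minus strand at 2 places, and a TEAD match lay at -10 bp from the summit. The Lmtk2 member held a C/EBP match 29 bp from the summit, and the Auts2 member an NFI core at -36 bp. The Pgap1 member held TTGCGTAA at 22 bp and the EBF match TCCCATGGGA at 60 bp. In the Trem2 member C/EBP letters occurred 5 bp and 92 bp from the summit and the AP-1 letters TGAATCA at -27 bp. A match describes letters in the window and does not show that a factor was bound.

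The members were weak peaks. Strength was read as the summit pileup, the number of extended tags that overlap at the summit, which was solved from the deposited fold and p-value of each peak on the assumption that they were written as MACS writes them. Members had a median pileup of 7, with quartiles of 6 and 9 and a range from 4 to 64. The other 39330 regions with an HY D8 peak had a median of 14. Median fold over the local background was 4.69 in members and 6.94 in those other regions, median −log10 q was 3.5 and 9.06, and median width was 128 bp and 265 bp. Regions with a peak of WT D8 alone, the same kind of set in the other genotype, were also weak. They had a median pileup of 8, a median fold of 4.81 and a median width of 121 bp. Their median −log10 q was 4.17, above the 3.5 of the members.

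The share of HY D8 regions that were members fell with each step in pileup. It was 37.0% (35.3% to 38.8%) at a pileup of 4 or 5, 25.4% at 6 or 7, 16.7% at 8 or 9, 9.02% at 10 to 14, 3.47% at 15 to 19 and 0.585% (0.471% to 0.726%) at 20 or more. By −log10 q, the HY D8 regions were split into 10 classes of nearly equal size, and 34.3% of the weakest class were members. In each of the strongest 2 classes 0 of 4423 regions was a member, which allows a share of up to 0.0868%.

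**Figure D1:**
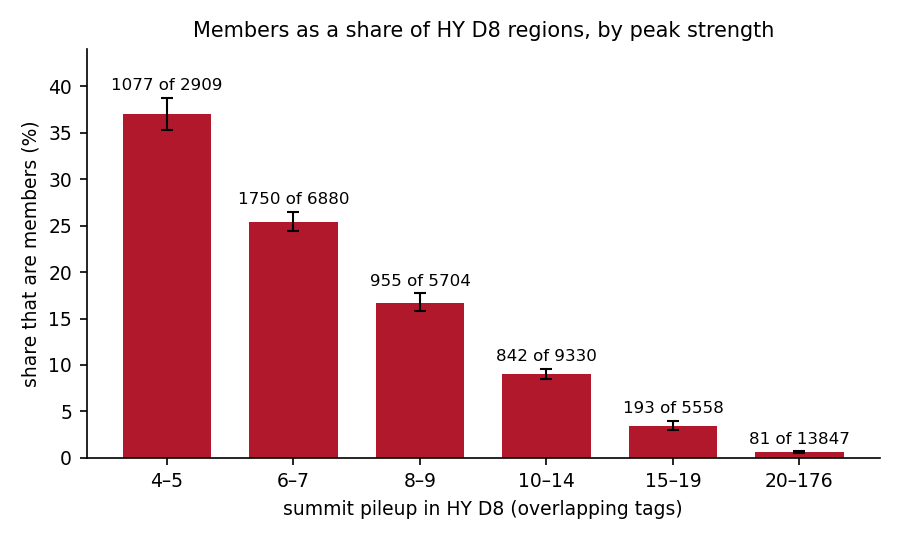
Share of the regions with an HY D8 peak that are members (y axis, percent) in 6 classes of HY D8 summit pileup (x axis, overlapping tags); bars give the share, error bars the 95% Wilson interval and the labels the counts. The share falls from 37.0% in the weakest class to 0.585% in the strongest.

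The members outnumbered the 2174 regions with a WT D8 peak alone, which made up 2.21% of all merged regions and 6.04% of the WT D8 regions. That order was not kept at equal list length. With only the 40226 strongest peaks of every library on these chromosomes, 4148 regions had only an HY D8 peak and 4177 only a WT D8 peak. Of those 4148 regions, 2747 (66.2%) overlapped a member, which is 56.1% of the members. Among regions open on day 0 in both genotypes, 6651 had a peak in every library but WT D8 with the full lists. Against these, 1864 had a peak in every library but HY D8. This pair of counts was not recomputed at equal list length.

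Depth differed between the libraries, with WT D0 at 1.33, WT D8 at 1.07 and HY D0 at 1.43 times the depth of HY D8, and the lowest pileup of any peak was 4 in HY D8 and 5 in the others. The pileup of a site without a called peak is unknown. A pileup of 7 has a 95% Poisson interval from 2.81 to 14.4. At the local background of a member, scaled to its depth, WT D8 needed a median pileup of 5 to call a peak. The lower Poisson limit of the HY D8 pileup, scaled in the same way, lay above that need in 394 members (8.04%, 7.31% to 8.84%), while the scaled pileup itself reached it in 4626 (94.4%). For HY D0 and WT D0 the lower limit lay above the need in 841 (17.2%) and 866 (17.7%) of the members, and the scaled pileup reached it in 100%. These counts use the HY D8 pileups of regions selected for having an HY D8 peak. They are a description and not a test of openness in the other libraries.

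Some members stood close to, but not in, a region open in another library. The median distance from a member to the nearest peak of any other library was 3939 bp, and 1027 members (21%) had one within 500 bp. Members within 500 bp were at promoters in 12.3% of cases (10.4% to 14.4%), against 3.71% (2.78% to 4.92%) of the 1214 members more than 10 kb away, and their median local background was 0.891 against 0.494 tags. At the edge of the rule, 34 members lay 10 bp or less from a peak of another library and had a median pileup of 7. Outside it, 42 HY D8 regions shared only 1 to 10 bp with another library, also with a median pileup of 7.

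The 12 members with the highest −log10 q were 7 sites in introns and 5 between genes, none at a promoter. The strongest lay at chr4:68517946-68518238 in an intron of Dbc1 (now Brinp1), a gene used mainly in the nervous system, with an HY D8 pileup of 19 over a background of 0.711, a fold of 11.7 and a −log10 q of 18.3. The nearest WT D8 peak was 1464422 bp away, and the nearest HY D0 peak 8049 bp. The member in an intron of Lmtk2, which encodes a membrane kinase, had a pileup of 17 at chr5:144870107-144870331. The member in an intron of Auts2, a regulator of neuronal development, also had a pileup of 17 (chr5:132849471-132849738), and its nearest WT D8 peak was 558666 bp away.

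Other members of this group lay in introns of Limch1, an actin-associated gene (chr5:67275753-67276068, pileup 16), of Ern1, the unfolded-protein sensor of the endoplasmic reticulum (chr11:106291084-106291343, pileup 16, with Icam2 as the nearest TSS), of Bmpr1a, a BMP receptor (chr14:35303167-35303366, pileup 17) and of Rgs6, a regulator of G-protein signalling (chr12:83844171-83844326, pileup 13). The intergenic members were nearest to Irak1bp1 (chr9:82378015-82378288, pileup 16), Eif3h (chr15:51375379-51375601, pileup 17), Osbp (chr19:12031915-12032156, pileup 17), Wwtr1 (chr3:57408883-57409042, pileup 14) and Pgap1 (chr1:54671874-54672148, pileup 13). Wwtr1 encodes TAZ, a co-activator of the Hippo pathway, and its member lay upstream of the TSS, at a position of -29116 bp. The Irak1bp1 and Eif3h members were at -345196 bp and 321552 bp from those TSSs (negative values are upstream), so the nearest gene is only a landmark there. At these 12 sites WT D8 needed 5 or 6 tags for a call, and their high pileups follow from how they were chosen.

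Of the members at protein-coding promoters, the one with the highest −log10 q, 11.4, covered the start of Trem2, a lipid-sensing receptor of macrophages (chr17:48485690-48485834, summit at -18 bp from the TSS). Its HY D8 pileup was 13 over a background of 0.585. The nearest peaks were 9172 bp away in WT D0, 62516 bp in WT D8 and 9131 bp in HY D0. Of the 18 annotated genes on the macrophage list, Trem2 was the only one with a promoter peak in HY D8. Neither WT D8 nor HY D8 had a promoter peak at Ptprc or Csf1r, markers that define these cells, and the promoter pileups of the whole list summed to 13 in HY D8 and 0 in WT D8, with 18 and 6 for HY and WT on day 0. Whether other cells in the culture contributed to the Trem2 member was not tested.

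The next promoter members by −log10 q, some of them with a higher pileup over a higher background, were at Rab23, a GTPase of the Hedgehog pathway (chr1:33790942-33791174, pileup 15), Rassf6 (chr5:91069994-91070160, pileup 14), the Wnt receptor gene Fzd5 (chr1:64784930-64785052, pileup 25), the Golgi nucleotide-sugar transporter gene Slc35a3 (chr3:116415533-116415670, pileup 14) and Acbd4 (chr11:102966728-102967052, pileup 28). Some of these stood close to a WT D8 peak. A WT D8 peak lay 114 bp from the Rassf6 member, 236 bp from the Fzd5 member and 248 bp from the Slc35a3 member. WT D0 and HY D0 also had peaks within 500 bp of the Fzd5 and Slc35a3 members, and their nearest peaks to the Rassf6 member were 11768 bp and 11695 bp away. The nearest WT D8 peak was 2231 bp from the Acbd4 member and 5125 bp from the Rab23 member.

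Most members were distal. Of the 4898, 296 (6.04%, 5.41% to 6.75%) had their summit at a promoter, from 1000 bp upstream to 100 bp downstream of any annotated TSS, 235 (4.80%) in an exon, 2421 (49.4%) in an intron and 1946 (39.7%) between genes. The other HY D8 regions were at promoters in 29.3% of cases, and the members' share minus theirs was -23.2 percentage points (-24.0 to -22.4). Regions open on day 8 in both genotypes and on neither day 0, 5920 in number, were at promoters in 5.93% of cases, and the difference from the members, 0.114 points, had an interval from -0.780 to 1.02. Among peaks whose −log10 q was 5 or more that difference was 1.67 points (0.126 to 3.43). WT D8-only regions were at promoters in 8.83%, a difference of -2.79 points (-4.20 to -1.47). The difference from WT D8-only regions was -1.13 points (-2.40 to 0.134) with lists of equal length and -0.139 points (-2.74 to 2.26) among peaks whose −log10 q was 5 or more.

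**Figure D2:**
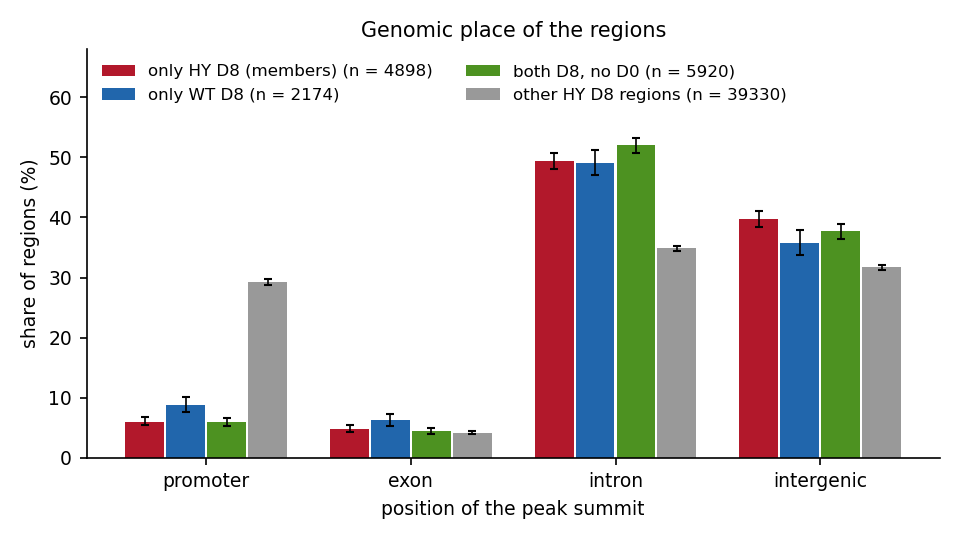
Share of regions (y axis, percent) whose summit lies at a promoter, in an exon, in an intron or between genes (x axis), for members, WT D8-only regions, regions open on day 8 in both genotypes and on neither day 0, and the other HY D8 regions; error bars are 95% Wilson intervals. Members are at promoters in 6.04% of cases and the other HY D8 regions in 29.3%.

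Since strong peaks are more often at promoters, place was compared within classes of HY D8 pileup. These classes leave in place a difference set by the rule. It bars members, but not the other HY D8 regions, from having a day 0 peak. Of the other HY D8 regions, 23856 were open in all 4 libraries. At a pileup of 4 or 5, 3.25% of the members and 7.42% of the other HY D8 regions were at promoters, a difference of -4.17 points (-5.75 to -2.51). At 10 to 14 the shares were 10.2% and 16.2%, and at 15 or more 17.2% and 47.4%. The members were thus below the other regions in each of the 5 classes, with each interval of the difference below 0. The intergenic share, in contrast, was 8.05 points higher in members over all pileups, but at a pileup of 4 or 5 it was 45.0% in members and 45.9% in the others, with an interval of the difference from -4.61 to 2.88. At 10 to 14 it was lower in members, at 32.4% against 37.3%, a difference of -4.91 points (-8.16 to -1.52).

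The nearest protein-coding TSS was at a median of 18500 bp from a member, 13300 bp from a WT D8-only region and 8100 bp from another HY D8 region. More than 50 kb separated 27.2% of the members from any such TSS, 7.14 points (5.02 to 9.21) more than for the WT D8-only regions and 3.59 points (1.94 to 5.24) more than for the regions open on day 8 in both genotypes. A region of the latter kind lay within 10 kb of 18.2% (17.1% to 19.3%) of the members, 25.9% (24.1% to 27.7%) of the WT D8-only regions and 14.1% (13.8% to 14.5%) of the other HY D8 regions. Another member lay within 10 kb of 13.8% of the members. The same held for 16.7% of the WT D8-only regions, 16.2% of the regions open on day 8 in both genotypes and 9.75% of the other HY D8 regions. These distances and shares were not recomputed with lists of equal length or with a −log10 q minimum.

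Members were poorer in GC and CpG than the other HY D8 regions. Median GC content over the 201 bases at the summit was 48.8%, against 49.8% in regions open on day 8 in both genotypes, 50.2% in WT D8-only regions and 53.7% in the other HY D8 regions. Within classes of HY D8 pileup, the members' median GC minus that of the other HY D8 regions was -0.498 points at 4 or 5. It was -1.49 points at 10 to 14 and -5.97 points at 15 or more. The median ratio of observed to expected CpG was 0.164 in members and 0.308 in the other HY D8 regions. The 32 bases at the summit occurred at more than 1 place in the genome for 5.88% (5.26% to 6.57%) of the members and for 5.01% of the WT D8-only regions, with an interval of the difference from -0.312 to 1.96 points. The share was 2.23% in the regions open on day 8 in both genotypes. Repeated summits were commonest among the weakest members, at 8.73% for a pileup of 4 or 5, and in that class the share was 3.44% in the other HY D8 regions. How multiply mapped reads were treated is not given in the sources used here.

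C/EBP letters and the NFI core were more frequent in members than in the other HY D8 regions. The C/EBP letters TTGCNNAA, on either strand and at most 100 bp from the summit, were found in 1040 members (21.2%, 20.1% to 22.4%), in 20.6% of the WT D8-only regions, in 26.8% of the regions open on day 8 in both genotypes, in 13.1% of the other HY D8 regions and in 11.1% of all merged regions other than members. Only 9.20% of the regions open in HY D0 alone held them. Members exceeded the other HY D8 regions by 8.16 points (6.98 to 9.37) and were below the regions open on day 8 in both genotypes, with a difference of -5.57 points (-7.18 to -3.96). From the WT D8-only regions they differed by 0.672 points (-1.41 to 2.69).

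The NFI core TTGGCA, which shares its first letters with the full NFI palindrome, had the same order. It was found in 23.1% of the members, 21.6% of the WT D8-only regions, 27.1% of the regions open on day 8 in both genotypes, 16.5% of the other HY D8 regions and 15.9% of all merged regions other than members. The difference from the regions open on day 8 in both genotypes was -4.08 points (-5.71 to -2.44), and -2.27 points (-4.99 to 0.563) among peaks whose −log10 q was 5 or more. From the WT D8-only regions members differed by 1.43 points (-0.692 to 3.50), and by 2.14 points (0.397 to 3.88) with lists of equal length. Both C/EBP letters and the NFI core were present in 6.02% (5.39% to 6.72%) of the members, in 5.34% (4.47% to 6.36%) of the WT D8-only regions, in 7.99% (7.33% to 8.71%) of the regions open on day 8 in both genotypes and in 2.88% of all merged regions other than members. The EBF palindrome TCCCNNGGGA was rarer in members (1.67%) than in WT D8-only regions (2.48%) and in regions open on day 8 in both genotypes (2.40%), with differences of -0.810 points (-1.62 to -0.110) and -0.724 points (-1.26 to -0.187). In the other HY D8 regions the EBF share was 1.53% and in all merged regions other than members 1.35%. With lists of equal length the EBF difference from WT D8-only regions was -0.564 points (-1.14 to 0.0056), and among peaks whose −log10 q was 5 or more the difference from regions open on day 8 in both genotypes was -0.577 points (-1.35 to 0.410).

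AP-1 letters were scarcer in members than in HY D0-only or WT D0-only regions. The AP-1 letters TGANTCA were found in 375 members (7.66%, 6.94% to 8.43%), in 6.99% of the WT D8-only regions and in 7.15% of the regions open on day 8 in both genotypes. Their share was 15.7% in the other HY D8 regions, 29.3% in the HY D0-only regions and 17.9% in the WT D0-only regions. In all merged regions other than members it was 22.3%. With lists of equal length the AP-1 share exceeded that of the regions open on day 8 in both genotypes by 1.57 points (0.485 to 2.69), against 0.511 points (-0.477 to 1.51) otherwise. The TEAD letters GGAATG were in 12.6% of the members, 11.7% of the WT D8-only regions, 11.9% of the regions open on day 8 in both genotypes and 17.2% of all merged regions other than members. CTCF letters, CCANNAGNNGGC, were in 2.27%, 2.48%, 1.55% and 7.09% of the same sets in that order. The GC-rich SP/KLF letters GGGCGG, common at promoters, were in 5.72%, 8.05%, 4.48% and 15%. With lists of equal length the members' CTCF share was 5.54% and their SP/KLF share 8.70%. None of the 15 motifs was found in 40.4%, 39.7%, 35.2% and 29.4%.

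**Figure D3:**
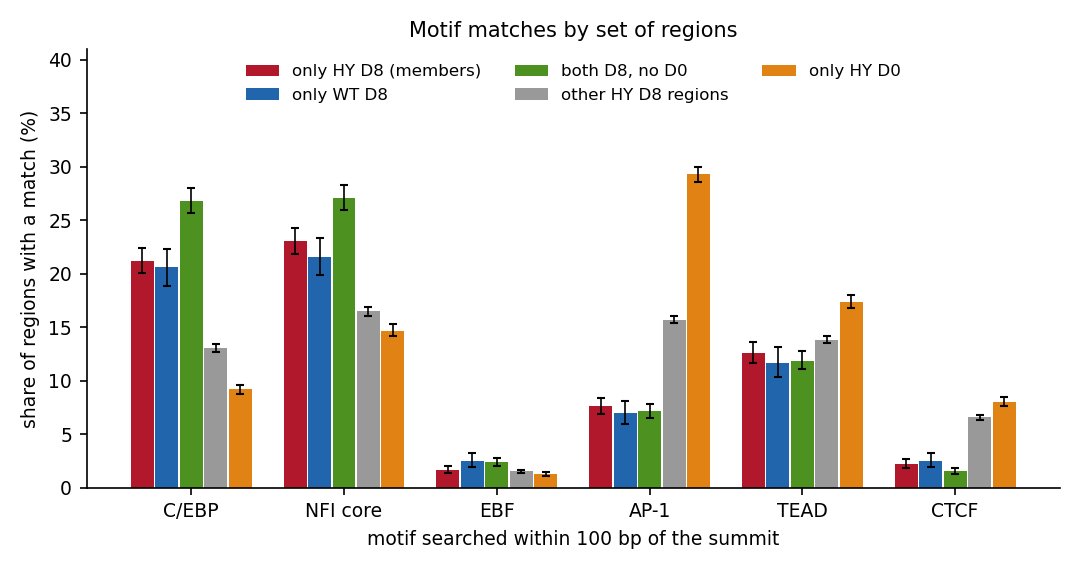
Share of regions (y axis, percent) with a match within 100 bp of the summit to each of 6 motifs (x axis), for members, WT D8-only regions, regions open on day 8 in both genotypes and on neither day 0, the other HY D8 regions and HY D0-only regions; error bars are 95% Wilson intervals. Members have C/EBP letters in 21.2% and AP-1 letters in 7.66% of cases, while HY D0-only regions have them in 9.20% and 29.3%.

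The C/EBP and AP-1 shares were also compared with those of the other HY D8 regions within classes of pileup. The rule bars members, but not those other regions, from having a day 0 peak, and pileup classes leave this in place. Regions open on day 0 in both genotypes and on neither day 8 held C/EBP letters in 8.67% and AP-1 letters in 31.7%. At a pileup of 6 or 7, C/EBP letters were in 23.3% of 1750 members and 13.4% of 5130 other HY D8 regions, a difference of 9.85 points (7.70 to 12.1), and AP-1 letters in 8.57% and 23.5%, a difference of -14.9 points (-16.6 to -13.1). The AP-1 interval was below 0 in all 5 pileup classes. The C/EBP interval was above 0 in 4 of them and ran from -0.245 to 8.25 points at a pileup of 15 or more, a wide class in which the other regions reach higher pileups. TEAD and CTCF intervals were below 0 in the 4 lower classes and held 0 at 15 or more, and the EBF interval held 0 in all 5. Members more than 10 kb from any other peak held C/EBP letters in 24.2% of cases, and those within 500 bp of one in 15.5%.

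C/EBP letters centred within 20 bp of the summit were found in 5.27% of the members, and in the next bands of 20 bp outward the shares were 4.80%, 5.43%, 4.94% and 2.82%. In WT D8-only regions the shares of the same 5 bands were 5.84%, 4.55%, 4.55%, 4.92% and 2.44%. A match had to fit inside the window, which leaves fewer positions in the outermost band. For AP-1 the members' shares were 2.10% (1.74% to 2.54%) within 20 bp and 1.10% (0.846% to 1.44%) at 81 to 100 bp, those of the WT D8-only regions 1.98% and 0.828%, and those of the HY D0-only regions 9.96% and 3.00%.

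Of the rarer motifs, the glucocorticoid response element ACANNNTGTNC was in 3.29% of the members and 4.32% of the regions open on day 8 in both genotypes, a difference of -1.04 points (-1.76 to -0.311), and MEF2 letters (CTANNNNTAG) were in 2.80% and 3.61%. Over all merged regions other than members their shares were 2.64% and 2.85%. RUNX letters (TGTGGTTT) were in 1.53% of the members and 0.828% of the WT D8-only regions, 0.703 points apart (0.135 to 1.19). They were in 2.70% of all merged regions other than members. Only 18 WT D8-only regions held RUNX letters, and this difference was not recomputed with lists of equal length or a −log10 q minimum. The strict PPAR-RXR repeat AGGTCANAGGTCA was found in 5 members, the full NFI palindrome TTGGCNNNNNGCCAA in 2, the ETS letters CCGGAAGT in 6, the cAMP response element TGACGTCA in 8 and the NRF1 letters GCGCNNGCGC in 13. From the other HY D8 regions the ETS, cAMP response element and NRF1 shares differed by -2.09 points (-2.26 to -1.89), -0.892 points (-1.02 to -0.706) and -3.30 points (-3.51 to -3.04). The shares of these 5 motifs among all merged regions other than members were 0.0246%, 0.0395%, 1.11%, 0.672% and 1.75%.

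Genes near members included most of the adipocyte genes. A member lay within 50 kb of a TSS for 5648 of 21418 protein-coding genes (26.4%) and for 18 of 20 genes on an adipocyte list. Within 10 kb these counts were 1790 (8.36%) and 7, within 100 kb 8848 (41.3%) and 19, and with members whose −log10 q was 5 or more 1741 (8.13%) and 8. Near Fabp4, the fatty acid carrier, 2 members had pileups of 24 and 26. The latter lay over a background of 9.61, with a fold of 2.54, a −log10 q of 3.02 and a WT D8 peak 579 bp away. Plin4, a lipid droplet coat gene, had 4 members with pileups from 22 to 45, and the one with the highest pileup lay in its exon (chr17:56243821-56243965) over a local background of 22.7, a fold of 1.94. The bases at its summit occur at 3 places in the genome, and WT D8 needed a pileup of 44 there. Lipe, the hormone-sensitive lipase, had 1 member with a pileup of 23, which is nearer to the TSS of 4732471J01Rik. Cebpa had 3 members (pileups 8 to 14), Cebpb 2 (10 and 15) and Agpat2, an enzyme of triglyceride synthesis, 3 (18 to 21). Pparg, Plin1, Adipoq and Cidec had 1 each, with pileups of 7 or 8. Pnpla2 and Slc2a4 were the genes of this list without one.

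Other kinds of region were also common near these genes. All 20 adipocyte genes also had a region open on day 8 in both genotypes within 50 kb, which 28.7% of all protein-coding genes had, and 10 of them had a WT D8-only region, against 15.5% of all genes. Of the 232 HY D8 regions within 50 kb of the adipocyte genes, 31 were members (13.4%, 9.58% to 18.3%), an interval that holds the 11.1% of all HY D8 regions. C/EBP letters were in 6.45% of those 31 members. At the promoters themselves both day 8 libraries were open to like degrees. The promoter pileups in WT D8 and HY D8 were 46 and 46 at Fabp4, 26 and 25 at Adipoq, 28 and 29 at Plin1 and 42 and 43 at Cidec, and there was no peak at these promoters on day 0. Pparg had promoter pileups of 17 and 12 on day 0 in WT and HY and 37 and 39 on day 8. Over the whole list, 13 of 20 genes had a promoter peak on day 0 in each genotype, and 16 in WT and 17 in HY on day 8. Their summed promoter pileup was 396 and 686 in WT and 456 and 732 in HY on the 2 days.

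Of the thermogenic genes, 9 of 19 had a member within 50 kb, against 26.4% of all protein-coding genes, and 11 had a WT D8-only region, against 15.5%. With a member within 10 kb there were 4 thermogenic genes, within 100 kb 12, and with a member whose −log10 q was 5 or more only Fgf21, which is 5.26% of the list against 8.13% of all genes. Among the HY D8 regions near these genes 11 of 121 were members (9.09%, 5.15% to 15.5%), beside 11.1% of all HY D8 regions. Among the WT D8 regions 17 of 121 (14%) were open in WT D8 alone, beside 6.04% of all WT D8 regions. The members with the highest pileup were at Pdk4, a kinase that restrains glucose oxidation (chr6:5447072-5447266, -901 bp from the TSS, pileup 23 over a background of 7.22, −log10 q 3.64), Ppara, the fatty-acid receptor (chr15:85565129-85565379, -169 bp, pileup 15 over 3.1, −log10 q 4.14), and the potassium channel gene Kcnk3 (chr5:30919048-30919199, in an intron, pileup 14). The Ppara promoter was open in every library, with peaks 128 bp from the member in WT D0 (pileup 28), 134 bp in WT D8 (35) and 141 bp in HY D0 (45). At Pdk4 the nearest peaks were 216 bp away in WT D0 (62), 240 bp in WT D8 (83) and 27 bp in HY D0 (79). Of the genes whose enhancers the study assayed, Ppargc1a and Ppara had 1 member each, that of Ppara being the one just given. The Ppargc1a member was weak and lay in an intron 7950 bp from the TSS with a pileup of 6 (chr5:51936976-51937242). The nearest peaks to it were 381 bp away in WT D0 (7), 6618 bp in WT D8 (11) and 240 bp in HY D0 (9). Within 50 kb Ppara also had 3 WT D8-only regions and Ppargc1a 0. Ppargc1b, Ucp1 and Cidea had none within 50 kb, and had 2, 1 and 1 WT D8-only regions. Within 100 kb Ppargc1b and Ucp1 each had a member. The assayed enhancers themselves were not looked at one by one, and some lie more than 50 kb from the TSS. The paper reports them as open after differentiation in both genotypes.

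On 4 further lists bearing on these cells, 36.8% to 50% of the genes had a member within 50 kb, against 26.4% of all protein-coding genes. A member lay near 10 of 20 inflammation and interferon genes, among them Lcn2, an adipokine with a member at -470 bp from its TSS (pileup 12), Irf1 (pileup 14) and Nfkbia (pileup 14). It lay near 8 of 19 contractile and SRF or YAP target genes, with Cyr61 (pileup 29 over a background of 9.19), Myh9 (13) and Acta2 (10) the highest, near 8 of 20 progenitor genes, with Col1a1, Zfp423 (both 10) and Cd34 (9) the highest, and near 7 of 19 genes of H3K9 methylation, where Jhdm1d (Kdm7a) had a member with a pileup of 16, Cbx1 one of 11 and Kdm4d one of 8. The Irf1 member lies 42006 bp from its TSS in an intron of Gm12216, the Col1a1 member 22889 bp away in an exon of Hils1 and the Cd34 member 38857 bp away at a promoter of a non-coding gene, and the Kdm4d member is nearer to Cwc15. A WT D8-only region lay near 3, 4, 2 and 8 genes of the same lists. As shares of the HY D8 regions near the genes, members made up 8.73%, 7.33%, 10.1% and 7.87% of these lists in that order, and the share over all HY D8 regions was 11.1%.

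The lists for other cell types served as a comparison, beside the 26.4% of all protein-coding genes. A member lay near 7 of 19 liver genes (Apoa1, with a pileup of 16, the highest), 5 of 18 macrophage genes (Trem2, Cd14 and Mrc1 with pileups of 13, 12 and 6), 4 of 20 endothelial genes (Egfl7 21, Nos3 7, Esam 6), 3 of 19 germline genes (Sycp3 14, Ddx4 6, Tdrd1 6) and 3 of 20 neuron genes (Slc17a7 10, Syt1 7, Tubb3 4). Of the HY D8 regions near the genes, members made up 15% (8.10% to 26.1%) for the liver list, 7.25% for macrophage, 5.77% for endothelial, 7.55% for germline and 4.69% for neuron genes, beside 13.4% for the adipocyte list. No liver gene had a promoter peak in any library. The members named for Apoa1, Cd14, Nos3, Sycp3, Ddx4, Slc17a7 and Tubb3 lie closer to the TSS of another protein-coding gene, that of Apoa1 in an intron of Sik3. The Egfl7 member lies closer to Agpat2, an adipocyte gene, at -11476 bp from its TSS.

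**Figure D4:**
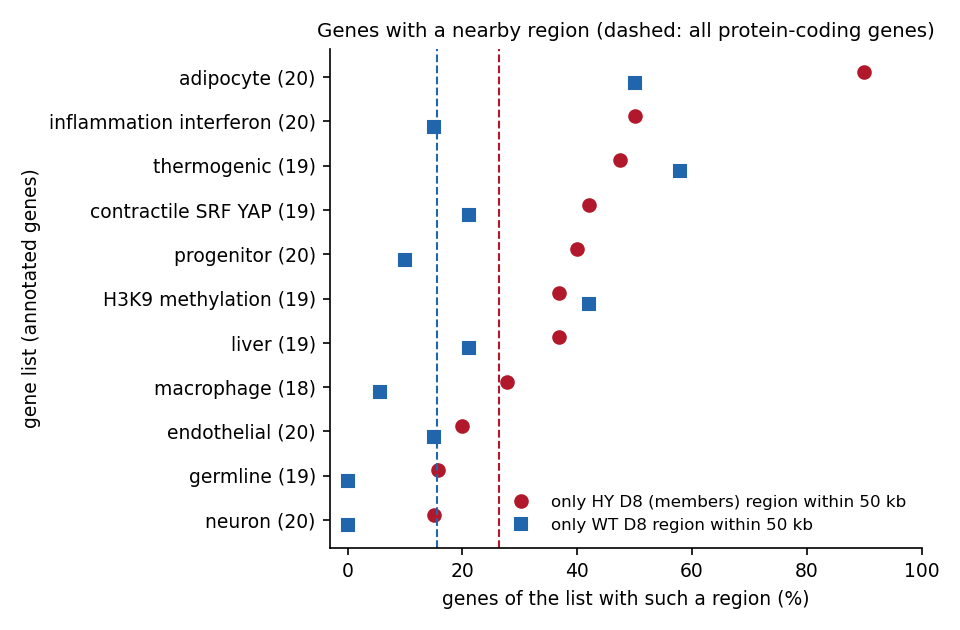
Share of the annotated genes of each list (y axis, number of genes in brackets) with a member (circles) or a WT D8-only region (squares) within 50 kb of a TSS (x axis, percent); dashed lines mark the shares over all protein-coding genes, 26.4% and 15.5%. The adipocyte list is highest for members, at 18 of 20 genes.

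Some genes were nearest to many members. Members were nearest to 3424 genes, of which 2516 had 1 member and 47 had 5 or more. Myc had most, 21 members with pileups from 4 to 13, all at least 71746 bp away, 12 of them in introns of the non-coding gene Pvt1 and 9 between genes. They made up 29.2% (19.9% to 40.5%) of the 72 HY D8 regions nearest to Myc, where 2 regions were open in WT D8 alone. Auts2 followed with 14 members, 13 in its introns, 56.0% (37.1% to 73.3%) of 25 HY D8 regions and with no WT D8-only region. Slc24a3, a cation exchanger gene, had 13, all in its introns with pileups from 4 to 8, which were 40.6% of its HY D8 regions. The uncharacterised 3930402G23Rik, Zmiz1, a transcriptional co-regulator, and the polarity gene Pard3 had 10 each, or 33.3%, 21.7% and 30.3% of their HY D8 regions. Over all HY D8 regions the share was 11.1%, and these genes were chosen for their number of members.

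Pileup at shared regions was also compared around these genes. Over the regions open in all 4 libraries within 1 Mb of the Myc members, 33 in number, the summed pileup of HY D8 relative to WT D8 was 1.25 times the ratio over chromosomes 1 to 19, and on day 0 the same ratio was 1.06. Around Auts2 the values were 1.51 and 1.10, over 4 regions only. Around Slc24a3 both were 1.03, around 3930402G23Rik 1.02 and 0.948, around Zmiz1 1.11 and 1.04 and around Pard3 1.02 and 0.996. The part of these ratios in the member counts was not tested.

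Chromosomes differed in their share of members. Members were 8.94% (7.66% to 10.4%) of the HY D8 regions on chromosome 12 and 15% (13.3% to 16.9%) on chromosome 14, with 13.8% on chromosome 16, 13.5% on chromosome 15 and 9.21% to 12.3% on the others. Per region open in WT D8 alone there were 1.23 members on chromosome 12, 3.70 on chromosome 14 and 3.16 on chromosome 15. The summed pileup of the regions open in all 4 libraries moved with these shares. Relative to all chromosomes, HY D8 over WT D8 was 0.863 on chromosome 12, 1.11 on chromosome 14 and 1.08 on chromosome 15, and on day 0 the ratios were 0.861, 1.09 and 1.06. Chromosome 16 had a high member share with a ratio of 1.02.

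Across the 19 chromosomes, which share the same libraries, the member share and the day 8 ratio had a Pearson correlation of 0.699 and a Spearman correlation of 0.476. Without chromosomes 12, 14 and 15, left out after their values were seen, these were 0.195 and 0.122 over 16 chromosomes. The relation therefore rests on those 3 chromosomes. On the remaining 16 the members made up 10.9% of the HY D8 regions. Whether the number of copies of a chromosome in each culture contributed was not tested.

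**Figure D5:**
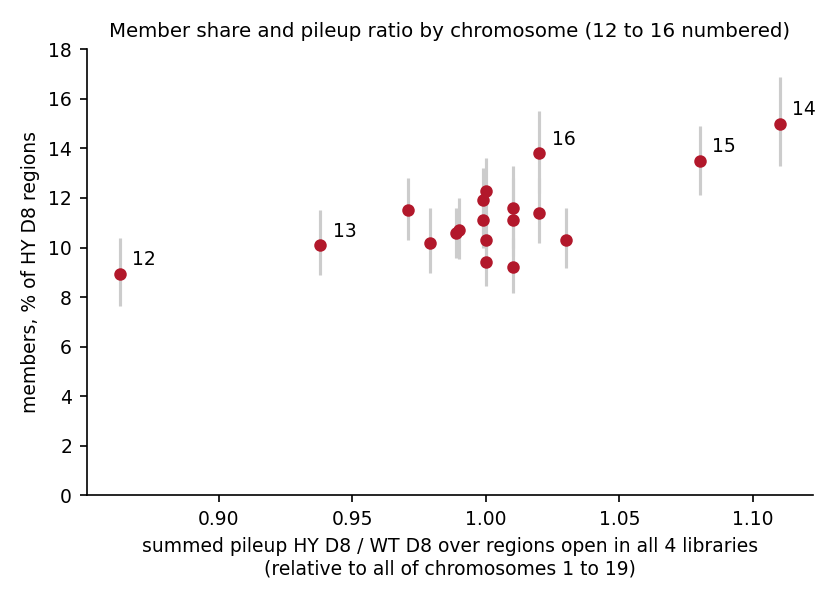
Members as a share of the HY D8 regions of each chromosome (y axis, percent, with 95% Wilson intervals) against the summed pileup of HY D8 over WT D8 at regions open in all 4 libraries, relative to chromosomes 1 to 19 together (x axis, ratio); each point is 1 of 19 chromosomes and 12 to 16 are numbered. Chromosome 12 is lowest on both axes, at 8.94% and 0.863, and chromosome 14 highest, at 15% and 1.11.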

How the data were processed

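The deposited data were 1 peak list for each of 4 ATAC-seq libraries, with no pooling. The submitters' processing notes list Bowtie2, SAMtools, Picard, deepTools and mm9, and the study describes trimming, filtering, removal of PCR duplicates and peak calling. Versions, the calling threshold and any Tn5 shift are not given in the sources used here. The caller of these lists is not named for ATAC-seq itself, and the columns were read as MACS writes them, which is an assumption: the deposited enrichment column as a ratio, the fold of summit pileup over local background, each plus 1. The authors' −log10 p and −log10 q columns refer to the same summit, and the deposited summit offset is in bp. None of these was normalised between libraries. Summit pileup and background were solved from fold and −log10 p within a tolerance of 0.002, which 100% of the peaks met; every pileup, background and depth value rests on this reading. The lowest background of a list gave its relative depth. Absolute read numbers were not used.

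Lists were merged in Python 3.11.15, checked against BEDTools 2.31.1, and the scripts were tested on simulated data. Place and sequence were read at the summit from NCBIM37 (mm9) with its GENCODE annotation, and coordinates count from 1. Shares have Wilson intervals and differences of shares Newcombe intervals. Regions are not replicates, so no p-value is given. The members, gene lists and motifs were chosen with earlier results of these data known. Named by rule were the 12 members with the highest −log10 q, the 6 highest by the same measure at protein-coding promoters, the 6 genes nearest to most members, up to 3 genes of each list by member pileup, and 5 genes whose enhancers the study assayed. Other genes of the adipocyte list were named after their values were seen. Alternatives covered the merging distance, the overlap rule, list length, a −log10 q minimum, leaving out each other list, the promoter and motif windows and the gene distance.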

Additional observations from a re-analysis of the deposited data

Results flagged for a closer look

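Outside chromosomes 1 to 19, which the rule covers, chromosome X held 96 regions with a peak of HY D8 alone, of 910 with an HY D8 peak, beside 45 with a peak of WT D8 alone, of 772 with a WT D8 peak. Unplaced contigs held 35 and 13 such regions. Chromosome Y held 0 of either kind, but 7 and 6 peaks of the HY lists of days 0 and 8 lay there, against 1 in each WT list, and what this difference between the cultures rests on was not tested. These regions are in no comparison of the report.

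Of 24 measures of place and sequence compared between regions open in 1 library alone, 11 had opposite signs on the 2 days, and for 1 of these both intervals of the difference left out 0. RUNX letters were more frequent in HY D8-only than in WT D8-only regions by 0.703 points and less frequent in HY D0-only than in WT D0-only regions, with a difference of -0.908 points. The difference between the days was not tested, and each value compares single libraries.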

How the results depend on the processing

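Of 129 alternative values, 51 moved by no more than the counting interval or 1.5 times and 78 moved further. The order of members and WT D8-only regions, 4898 and 2174, turned to 4148 and 4177 with lists of equal length. The 4898 members became 1211 (3.97% of the HY D8 regions) when HY D8 peaks needed a −log10 q of at least 5, 7687 (17.4%) when peaks of the other lists did, and 10905 (24.6%) without the WT D8 list. Their number ran from 3780 to 6034 under the other settings that count regions. Their share of HY D8 regions was 9.26% with peaks up to 500 bp apart joined, 12.1% without WT D0 and 13.4% without HY D0. It was 8.75% when no other peak could lie within 500 bp. That setting was chosen after seeing the data, as was leaving out chromosomes 12, 14 and 15. Counted by peak, 6442 of 47794 HY D8 peaks (13.5%) lacked a peak of another list that covered 50% of them.

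With lists of equal length, 9.06% of the members were at promoters and 38.3% intergenic, AP-1, C/EBP and NFI core letters were in 10.1%, 18.9% and 21.8%, and median GC was 49.8%. Among members whose −log10 q was 5 or more, 7.60% were at promoters, 37.3% intergenic and 25.4% held the NFI core. With peaks joined over 500 bp, 4.31% were at promoters and C/EBP and NFI core letters were in 23.0% and 24.7%. A promoter from 2000 bp upstream to 1000 bp downstream took in 12.7%. Within 50 bp of the summit AP-1, C/EBP and NFI core letters were in 4.12%, 11.5% and 12.6%. The cause of these shifts was not tested, other than the shorter window holding fewer positions. No paired analysis was possible because each group is 1 library. The pileup of a site without a called peak is unknown, so depth limits what the absence of a WT D8 peak shows.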
